A study of Mus musculus with 9 samples.

Results

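Serum amyloid A, complement C3, LPS-binding protein, the leucine-rich glycoprotein Lrg1, the chitinase family proteins Chil1 and Chit1 and the WAP-domain protein Wfdc17 are secreted proteins of the acute-phase and innate defence response. Their 9 genes, Saa1, Saa2, Saa3, Lrg1, Lbp, C3, Chil1, Chit1 and Wfdc17, were followed across mixed, luminal and basal aggregates of mouse mammary epithelial cells. They are 9 of the 54456 gene names in the deposited count table, and all 9 passed the filter on low counts, as did 18051 names in all. The 9 genes were chosen by name, with the differences between the 3 kinds of aggregate in these same libraries already known. Their levels and differences are therefore given as a description, with no p-value, and they are not independent evidence of a direction.

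Acute-phase proteins are best known from the liver, where interleukin-6, interleukin-1 and tumour necrosis factor switch on their genes through STAT3, C/EBP factors and NF-kappaB. Epithelia that face the outside, the mammary gland among them, make several of the same proteins locally, and SAA3, a form made outside the liver, is known from the colostrum of cattle. Chil1 encodes a lectin that binds chitin without cutting it, whereas Chit1 encodes an active chitinase best known from macrophages.

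Luminal cells line the mammary duct and contractile basal (myoepithelial) cells surround them. Wild-type cells of both kinds were purified by flow cytometry and reassembled into mixed aggregates (a 50% mixture), luminal aggregates or basal aggregates, which migrated in 80% Matrigel towards beads soaked in FGF10, a growth factor that attracts mammary epithelium. RNA was sequenced from 3 libraries of each kind. Migration lasted 56 h by the treatment label and 55 h by the titles. All groups had the bead, and since no aggregate without FGF10 was used here, nothing is measured of the effect of FGF10 itself. Separate animals or cultures are not stated for the libraries of a group, so the errors and p-values measure the spread between these libraries, which may be technical. In bulk RNA, fewer cells of a type and less RNA per cell cannot be told apart.

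The libraries held between 15585324 and 19164405 counts, and 3 counts corresponded to between 0.152 and 0.187 CPM (counts scaled to the size of the library, with TMM normalisation). Reads carried no molecular identifiers, so this limit covers counting error only. The column names of the count table carry codes that fall into 3 series. Series A holds all 3 mixed libraries and basal 2, series B holds luminal 1, basal 1 and basal 3, and series C holds luminal 2 and luminal 3. The sources used here do not say what the codes stand for. Where a within-series value is given below, it comes from a fit with the series as a term, which compares luminal 1 with basal 1 and 3 and compares mixed 1 to 3 with basal 2. No series holds both mixed and luminal libraries, so for that comparison series and group cannot be told apart except through basal. Basal 2 stood apart from the other basal libraries, with a correlation of log CPM over genes (no replicates of each other) of 0.927 to basal 1 and 0.936 to basal 3, where basal 1 and basal 3 gave 0.986. Mixed 3 was about as far from its group, at 0.932 to mixed 1 and 0.922 to mixed 2, where mixed 1 and mixed 2 gave 0.948. Pairs of luminal libraries gave 0.966 to 0.970. Summed over 7 luminal markers, the level was 9123 to 10614 CPM in mixed, 7273 to 9889.7 CPM in luminal and 3425 to 3904 CPM in basal libraries. Summed over 7 basal markers it was 6340.45 to 7526 CPM in mixed, 1439 to 2849.6 CPM in luminal and 9900.05 to 11346 CPM in basal libraries, so both sums separated the luminal from the basal libraries. The mixed libraries lay between these in the basal sum, but in the luminal sum they overlapped the luminal libraries.

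On the mouse build mm39 the Saa genes lie together on chromosome 7, Saa3 at 46361422 to 46365124 and Saa1 at 46389921 to 46392404 on the minus strand and Saa2 at 46401214 to 46403737 on the plus strand. Chit1 (134038980 to 134079278) and Chil1 (134109914 to 134117919) lie near each other on the plus strand of chromosome 1. Lrg1 (56426678 to 56429001) and C3 (57510970 to 57535136) are on the minus strand of chromosome 17, Lbp (158148413 to 158174772) is on the plus strand of chromosome 2 and Wfdc17 (83594817 to 83597094) is on the plus strand of chromosome 11. In the table's own exon coordinates none of the 9 shared an exon base with another gene name (0% of exon bases for each). Values count reads over all annotated exons of a gene, untranslated regions included. For Saa1 and Saa2 these exons merge to 2478 and 2518 bases, nearly the whole gene, against spliced transcripts of 609 and 606 bases. Their values therefore also take in reads from stretches that are introns in the spliced transcript.

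Promoters of the Saa genes and of Chil1 are shown because Saa1 and Saa2 had the most alike profiles of the 9 genes over the libraries, at different levels, Saa3 did not share that profile, and Chil1 was the most abundant of the 9 genes. They are from RefSeq on GRCm38.p6, an earlier build than that of the counts, and run from 250 bases before to 50 bases after the annotated start, 5′ to 3′ on the gene's own strand. RefSeq promoters were matched for 8 of the 9 genes and not for Lbp. Capitals mark TTNNGNAA, a C/EBP-type motif, read on either strand, and, in Chil1, the match GGGACTCCCC to the NF-kappaB consensus. The windows are chr7:46742931-46743230 (minus strand) for Saa1, chr7:46751583-46751882 (plus strand) for Saa2, chr7:46715627-46715926 (minus strand) for Saa3 and chr1:134181906-134182205 (plus strand) for Chil1.
Saa1: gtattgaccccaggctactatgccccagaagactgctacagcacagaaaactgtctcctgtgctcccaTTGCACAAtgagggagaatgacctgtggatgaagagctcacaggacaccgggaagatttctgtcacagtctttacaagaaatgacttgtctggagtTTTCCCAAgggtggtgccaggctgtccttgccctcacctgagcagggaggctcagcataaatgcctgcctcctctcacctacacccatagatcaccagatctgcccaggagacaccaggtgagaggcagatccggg
Saa2: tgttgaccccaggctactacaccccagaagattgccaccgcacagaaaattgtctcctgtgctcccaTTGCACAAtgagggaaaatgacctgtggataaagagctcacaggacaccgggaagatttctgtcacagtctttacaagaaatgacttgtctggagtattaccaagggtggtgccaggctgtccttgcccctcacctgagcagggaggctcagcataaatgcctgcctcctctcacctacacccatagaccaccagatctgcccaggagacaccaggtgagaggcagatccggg
Saa3: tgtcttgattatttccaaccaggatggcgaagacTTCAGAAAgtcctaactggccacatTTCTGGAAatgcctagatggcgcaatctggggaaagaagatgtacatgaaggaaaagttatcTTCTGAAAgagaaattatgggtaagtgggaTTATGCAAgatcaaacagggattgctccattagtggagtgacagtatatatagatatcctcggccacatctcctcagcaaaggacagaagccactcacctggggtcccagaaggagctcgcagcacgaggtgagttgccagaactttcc
Chil1: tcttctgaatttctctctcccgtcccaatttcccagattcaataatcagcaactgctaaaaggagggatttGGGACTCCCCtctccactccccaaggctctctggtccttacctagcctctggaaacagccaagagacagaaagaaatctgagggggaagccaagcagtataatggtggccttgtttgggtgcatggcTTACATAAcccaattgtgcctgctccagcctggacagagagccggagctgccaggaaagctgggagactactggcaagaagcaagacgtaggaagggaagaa

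The C/EBP-type motif was present in 6 of the 8 promoters, against 40.7% of the 32851 RefSeq promoters of the same length. Saa3 held 4 matches, C3 held 3, Saa1 and Wfdc17 held 2 each, and Saa2 and Chil1 held 1 each, while the Lrg1 and Chit1 windows held 0. The STAT-type motif TTCNNNGAA was in 0 of the 8 windows (8.30% of all promoters), and the NF-kappaB consensus was in Chil1 alone among the 8 (8.46% of all promoters). No match of a motif overlapped a match of another. A match is a string of letters and not a shown binding site, and these windows hold only the sequence next to the start. The Saa1 and Saa2 promoters were identical at 95.4% of aligned positions, against 49.5% for Saa1 with Saa3. Saa2 kept the more distant of the Saa1 matches (-183 to -176 from the start in Saa2, -182 to -175 in Saa1) and lacked the nearer match at -86 to -79.

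Across the 9 genes, luminal aggregates stood above basal aggregates in 7 genes past the 5% false discovery threshold of edgeR's quasi-likelihood test and below in 0, and Saa3 and Chit1 did not pass. Of all tested genes 12.8% were higher and 14.4% lower in that comparison. Mixed aggregates stood above basal aggregates in the same 7 genes and below in 0, against 6.39% of all tested genes higher and 7.33% lower. Against luminal aggregates, mixed aggregates stood lower in 4 genes (Lrg1, Chil1, Chit1 and Lbp) and higher in 0, against 14.2% of all tested genes lower and 15.2% higher. Because the genes were picked with these contrasts known, nothing is read from the counts. The median log2 difference of the 9 genes was 4.99 for luminal minus basal, 2.43 for mixed minus basal and -1.19 for mixed minus luminal, where the median of all tested genes was -0.02, -0.07 and -0.05. Both comparisons with basal share the basal libraries. Scaling by library size alone moved the median of all tested genes to -0.17, -0.22 and -0.06 and the share of higher genes among all calls to 35% for luminal minus basal and 33.6% for mixed minus basal, against 47% and 46.5% with TMM. The counts of the 9 genes were 7, 7 and 4 under that scaling too.

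**Figure D1:**
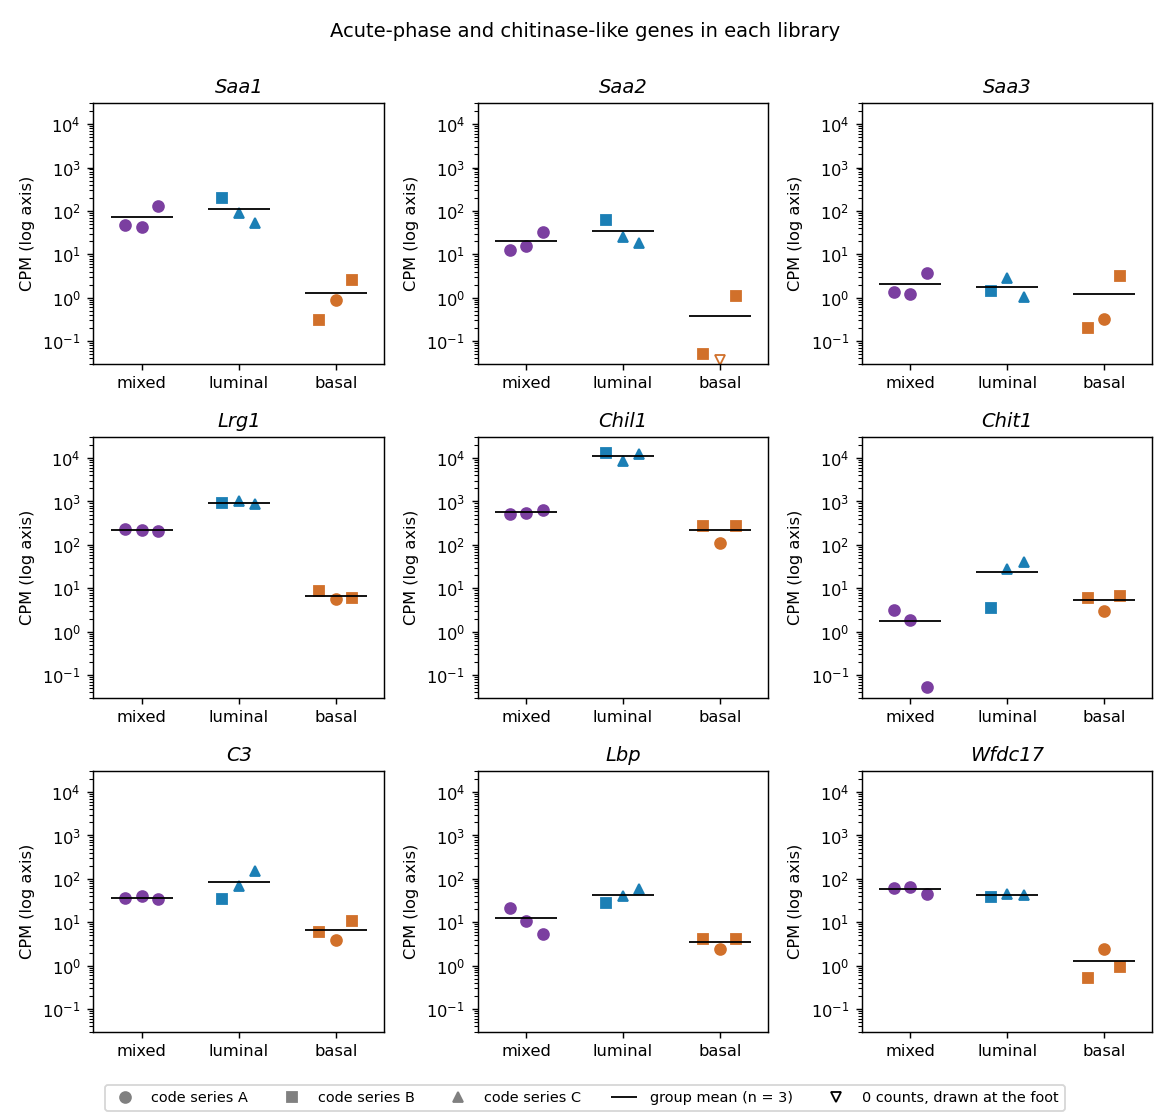
Level of each gene in CPM (log axis, same scale in every panel) in the 3 mixed, 3 luminal and 3 basal libraries; each point is a library, its shape gives the code series and the line is the group mean. Lrg1 and Wfdc17 sit far above basal in every mixed and luminal library, Chil1 reaches 12825 CPM in luminal 1, and Saa3 overlaps across all 3 groups.

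Serum amyloid A proteins are small apolipoproteins that travel on high-density lipoprotein and act on formyl peptide and scavenger receptors. Saa1 stood at 46.6, 42.1 and 128 CPM in the mixed libraries, at 198, 88.1 and 51.6 CPM in the luminal libraries and at 0.304, 0.882 and 2.59 CPM in the basal libraries. Every mixed and luminal library lay well above every basal library, and the mixed and luminal ranges overlapped. The spread within groups was wide, with means of 72.3 ± 48.4 CPM in mixed, 112 ± 76.0 CPM in luminal and 1.26 ± 1.19 CPM in basal aggregates (SD, n = 3 each). As log2 differences, luminal minus basal was 6.50 ± 0.72 (SE), mixed minus basal 5.86 ± 0.72 and mixed minus luminal -0.64 ± 0.59. Within code series it was 7.13 for luminal minus basal and 6.35 for mixed minus basal. The luminal level rests in part on luminal 1, and without it luminal minus basal was 5.82 and mixed minus luminal was 0.04. The mixed level rests in part on mixed 3, and without it mixed minus basal was 5.14 and mixed minus luminal was -1.35. Without basal 3, the highest basal library, luminal minus basal was 7.57 and mixed minus basal was 6.92.

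Saa2 repeated the order of Saa1 within each group, at 12.4, 15.9 and 33.1 CPM in mixed, 61.4, 25.7 and 18.4 CPM in luminal and 0.0507, 0 and 1.09 CPM in basal libraries, except that mixed 1 was below mixed 2 and basal 2 held no count. Basal 1 and 2 held 1 and 0 counts, so these levels lie under the limit of 3 counts. Its log2 difference was 6.55 ± 0.93 (SE) for luminal minus basal, 5.77 ± 0.93 for mixed minus basal and -0.78 ± 0.67 for mixed minus luminal. Without basal 3 the basal level rests on that 1 count, and the fitted 10.04 for luminal minus basal is then no measured size. Within series A, where basal 2 is the basal library, Saa2 was at least 123.7-fold higher in mixed libraries when basal 2 is set to 3 counts, and luminal minus basal within series B was 6.78. The ratio of Saa1 to Saa2 counts was 3.77, 2.64 and 3.88 in mixed libraries and 3.22, 3.43 and 2.80 in luminal libraries. Spliced Saa1 and Saa2 transcripts (609 and 606 bases, GENCODE M21) were identical at 93.9% of aligned positions and shared a run of 99 bases. Reads that fit both genes were not counted, so both levels are uncertain and may be low.

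Saa3 was nearly silent in all 3 kinds of aggregate. It stood at 1.37, 1.23 and 3.65 CPM in mixed, 1.40, 2.91 and 1.06 CPM in luminal and 0.203, 0.331 and 3.10 CPM in basal libraries, or between 4 and 67 counts. Basal 3 lay above every luminal library and below mixed 3, and all groups overlapped. Fitted log2 differences were 0.56 ± 0.99 (SE) for luminal minus basal, 0.78 ± 0.99 for mixed minus basal and 0.22 ± 0.98 for mixed minus luminal. Leaving out basal 3 moved the first to 2.72 and the second to 2.93, and within series the first was -0.23 and the second 2.63, none of them past the threshold. The ratio of Saa1 to Saa3 counts was 33.9, 34.2 and 35.1 in mixed libraries, 140.8, 30.3 and 48.8 in luminal libraries and 1.5, 2.67 and 0.833 in basal libraries. Mixed 3 was thus the highest mixed library for all 3 Saa genes, and basal 3 the highest basal library for all 3.

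Lrg1, which encodes a secreted leucine-rich glycoprotein known to modulate TGF-beta signalling through the receptor Alk1 (Acvrl1) in endothelium, had the smallest standard errors of the 9 genes. It stood at 230.0, 215 and 214 CPM in mixed, 918, 1008 and 879.7 CPM in luminal and 8.57, 5.62 and 5.86 CPM in basal libraries. No pair of groups overlapped. On the log2 scale the difference was 7.12 ± 0.19 (SE) for luminal minus basal, 5.03 ± 0.19 for mixed minus basal and -2.09 ± 0.18 for mixed minus luminal. Within series the first was 6.98 and the second 5.29, and with the series as a term the last was -1.70, through basal only. The Alk1 gene Acvrl1 was higher in luminal than in basal aggregates (1.71 ± 0.31, edgeR adjusted p = 0.0019) and lower in mixed than in luminal aggregates (-1.54 ± 0.31, edgeR adjusted p = 0.0051).

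Lbp encodes the plasma protein that hands bacterial lipopolysaccharide to CD14. Its level was 21.2, 10.5 and 5.39 CPM in mixed, 27.6, 40.8 and 59.9 CPM in luminal and 4.16, 2.42 and 4.08 CPM in basal libraries. No pair of groups overlapped, but mixed 3 lay close to the basal libraries and mixed 1 close to luminal 1. The log2 difference was 3.59 ± 0.46 (SE) for luminal minus basal, 1.79 ± 0.46 for mixed minus basal and -1.79 ± 0.44 for mixed minus luminal. Mixed minus basal no longer passed the threshold without mixed 1 (1.14), mixed 2 (1.88), basal 1 (1.91) or basal 3 (1.90), nor within series A (2.35). Mixed minus luminal was -2.44 without mixed 1, and it no longer passed without luminal 3 (-1.48) or with the series as a term (-0.40). Within series B luminal minus basal was 2.74.

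C3 encodes the central component of complement, which is cleaved to tag surfaces and to release an anaphylatoxin. It stood at 36.9, 39.4 and 34.1 CPM in mixed, 34.8, 67.6 and 149.8 CPM in luminal and 5.88, 3.97 and 10.6 CPM in basal libraries. All mixed and luminal libraries lay above all basal libraries, and luminal 1 lay among the mixed libraries. The mixed mean was 36.8 ± 2.64 CPM, against a luminal mean of 84.1 ± 59.2 CPM, so the spread within the luminal group exceeded the difference between the means. The log2 difference was 3.63 ± 0.46 (SE) for luminal minus basal, 2.43 ± 0.47 for mixed minus basal and -1.19 ± 0.45 for mixed minus luminal. Without luminal 3 the first was 2.90 and the last was -0.48. Without luminal 1 (-1.57) or without basal 2 (-1.20) mixed minus luminal passed the threshold. With the series as a term, luminal minus basal was 2.08, mixed minus basal was 3.21 and mixed minus luminal was 1.13, which did not pass.

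Chil1, the gene of the chitin-binding lectin also called YKL-40 or BRP-39, was among the most abundant transcripts of luminal aggregates. It stood at 514, 553 and 632 CPM in mixed, 12825, 8602 and 12573 CPM in luminal and 273, 109.8 and 269 CPM in basal libraries. Each luminal library was more than an order of magnitude above every mixed library, and no pair of groups overlapped. By counts Chil1 ranked 1, 2 and 1 among all gene names in the luminal libraries, with 1.27%, 0.81% and 1.23% of all counts, against ranks 231, 182 and 161 in the mixed libraries and 428, 2235 and 474 in the basal libraries. Its log2 difference was 5.71 ± 0.31 (SE) for luminal minus basal, 1.38 ± 0.31 for mixed minus basal and -4.32 ± 0.31 for mixed minus luminal. Within series the first was 5.56 and the second 2.37, the latter set by basal 2, the lowest basal library. The last was -3.20 with the series as a term, through basal only. Mixed minus basal no longer passed the threshold without mixed 3 (1.28).

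Chit1 followed another pattern, and its levels were low. It stood at 3.20, 1.91 and 0.0545 CPM in mixed, 3.51, 28.2 and 40.6 CPM in luminal and 6.09, 3.03 and 6.73 CPM in basal libraries. Luminal 2 and 3, both of series C, were high, whereas luminal 1 lay within the basal range, and mixed 3 held 1 count. Fitted log2 differences were 2.19 ± 0.88 (SE) for luminal minus basal, -1.62 ± 0.93 for mixed minus basal and -3.81 ± 0.92 for mixed minus luminal. Without luminal 1 the first was 2.71 and passed the threshold, as it did without mixed 3 (2.18). The difference between mixed and luminal was -4.64 without mixed 1, did not pass without luminal 3 (-3.21) and was 0.048 with the series as a term, where luminal minus basal was -0.87 and mixed minus basal -0.82. The spliced Chil1 and Chit1 transcripts were identical at 55.1% of aligned positions, with no shared run longer than 16 bases.

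Wfdc17, which encodes a small secreted protein with a whey acidic protein (WAP) domain and is known in the mouse from activated macrophages, was the gene of the 9 with its highest mean in mixed aggregates among those that passed against basal. It stood at 62.1, 65.9 and 45.6 CPM in mixed, 37.5, 43.9 and 42.8 CPM in luminal and 0.507, 2.48 and 0.920 CPM in basal libraries. The lowest mixed library was just above the highest luminal library, and basal 2 was the highest basal library. The log2 difference was 4.99 ± 0.41 (SE) for luminal minus basal, 5.47 ± 0.41 for mixed minus basal and 0.48 ± 0.35 for mixed minus luminal. Within series B luminal minus basal was 5.72, and within series A mixed minus basal was 4.54. Without basal 2 the same differences were 5.85 and 6.33. With the series as a term mixed minus luminal was -1.18, again not past the threshold, so no direction is given for that pair.

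**Figure D2:**
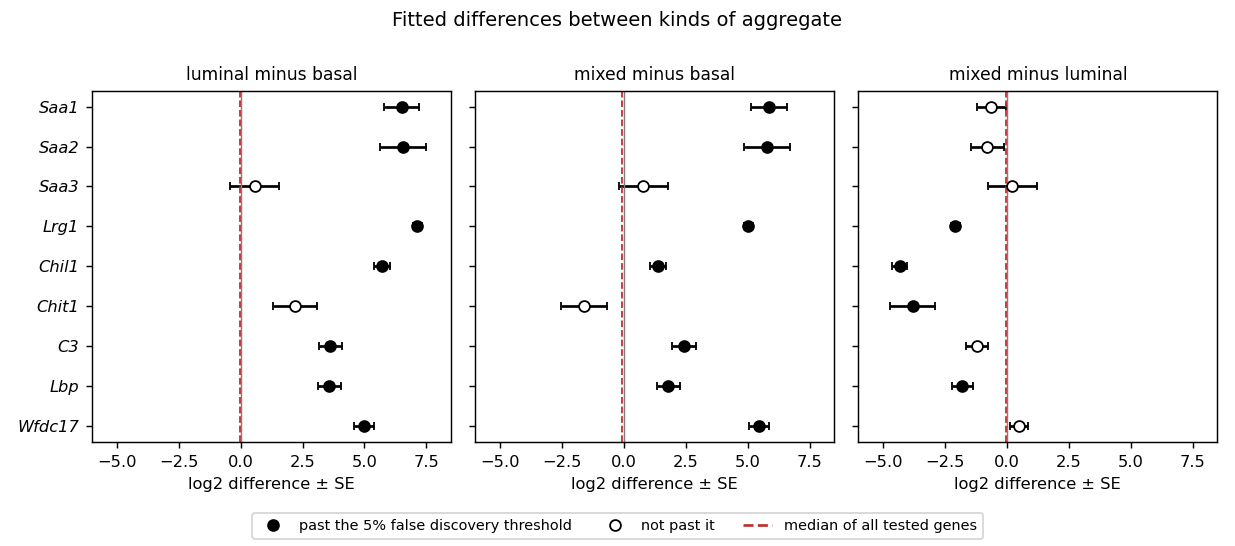
Fitted log2 difference (points) with its standard error (bars) for the 9 genes in luminal minus basal, mixed minus basal and mixed minus luminal. Filled points passed the 5% false discovery threshold over 18051 genes, and the dashed line is the median of all tested genes. Chil1 has the lowest mixed minus luminal value (-4.32), and Lrg1 has the smallest error.

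Per kilobase of merged exon, the luminal mean was 4042 CPM for Chil1, 664 CPM for Lrg1, 77.6 CPM for Wfdc17, 45.4 CPM for Saa1, 16.3 CPM for C3, 13.97 CPM for Saa2, 13.3 CPM for Chit1, 8.86 CPM for Lbp and 0.687 CPM for Saa3. In mixed aggregates the order began with Chil1 (202 CPM per kilobase), Lrg1 (156), Wfdc17 (109) and Saa1 (29.2), and in basal aggregates with Chil1 (77.5), Lrg1 (4.75), Chit1 (2.91) and Wfdc17 (2.44). The luminal SDs of Saa1 (30.7), C3 (11.5), Saa2 (9.14) and Chit1 (10.4) span their neighbours in this order, so C3, Saa2, Chit1 and Lbp do not differ beyond their spread, and the ranges of Wfdc17 and Saa1 over the luminal libraries overlapped. The basal SDs of Lrg1 (1.16), Chit1 (1.09) and Wfdc17 (1.95) likewise span their neighbours, so the basal order after Chil1 is not resolved. The Saa values per kilobase are low estimates, because the merged exons of Saa1 sum to 2478 bases while its spliced transcript has 609. Together the 9 genes took 0.0952 ± 0.0093% of all counts in mixed, 1.23 ± 0.256% in luminal and 0.0268 ± 0.0126% in basal libraries (SD, n = 3 each). Without Chil1 the share was 0.0387% to 0.0445% in mixed, 0.122% to 0.127% in luminal and 0.00178% to 0.00390% in basal libraries.

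Mixed aggregates were also set against the equal-weight mean of the luminal and basal means, the level that a 50% mixture would give if both cell types kept their levels and gave equal RNA. The log2 ratio to that level was -3.35 for Chil1, with -3.49, -3.38 and -3.19 for mixed 1, 2 and 3. That is a level 10.2-fold below the equal-weight mean, and 1.49% of tested genes had a lower value. Chit1 was at -3.09, with -2.20, -2.95 and -8.08 in the 3 libraries, the last from 1 count. Its equal-weight mean rests on luminal 2 and 3 of series C (28.2 and 40.6 CPM), against 3.51 CPM in luminal 1. Lrg1 was at -1.10, with -1.03, -1.13 and -1.13 in mixed 1, 2 and 3. Lbp was at -0.91 with a wide spread (-0.13, -1.15 and -2.10), and at -1.55 without mixed 1 and -0.55 without mixed 3. Wfdc17 was above the equal-weight mean in every mixed library (1.54, 1.63 and 1.10, mean 1.44), and 97.2% of tested genes had a lower value. Saa1 (0.35), Saa2 (0.20), Saa3 (0.47) and C3 (-0.30) lay nearer to it, and C3 was at 0.34 without luminal 3. Mixed 3 was above the equal-weight mean for all 3 Saa genes and mixed 1 and 2 were below it, so that without mixed 3 the values were -0.36 for Saa1, -0.33 for Saa2 and -0.21 for Saa3. Over 17854 tested genes the median was -0.10, with 5% below -2.07 and 5% above 1.12. The 339 genes called higher in luminal than in basal aggregates by a log2 difference of 3 or more had a median of -0.62, with 5% below -3.84. These values reuse the libraries that chose the genes and are a description. The sums of luminal markers exceeded their own equal-weight mean in all mixed libraries. They were 9123 to 10614 CPM in mixed, 7273 to 9889.7 CPM in luminal and 3425 to 3904 CPM in basal libraries. The sums of basal markers in mixed libraries lay between those of the pure groups. Whether the mixed aggregates held equal RNA of both cell types was not tested. All 3 mixed libraries are of series A and no luminal library is, so the ratios are not separated from the code series. In the fit with the series as a term, mixed minus luminal was 0.048 for Chit1, -1.18 for Wfdc17, -3.20 for Chil1 and -1.70 for Lrg1.

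**Figure D3:**
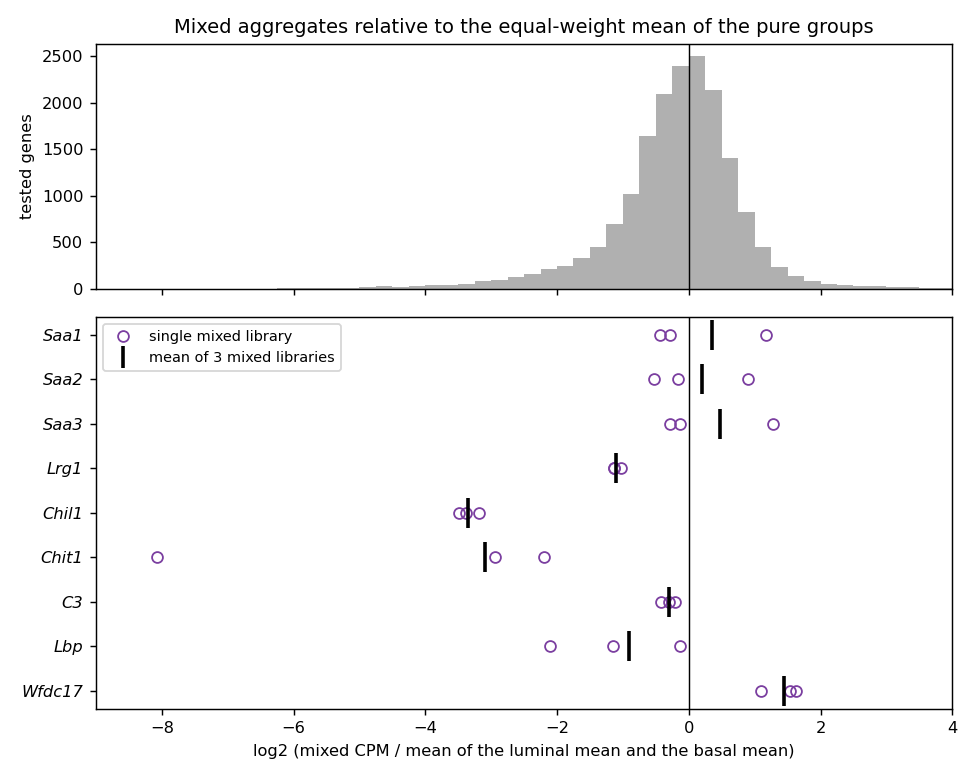
Upper panel, number of tested genes by log2 of the mixed mean over the equal-weight mean of luminal and basal (17843 genes in the plotted range); lower panel, the same ratio for the 9 genes, with open circles for the 3 mixed libraries and bars for their mean. Chil1 and Chit1 lie in the lower tail at -3.35 and -3.09, and Wfdc17 lies above 0 in all 3 mixed libraries. All mixed libraries are of series A and no luminal library is, so these ratios are not separated from the code series.

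Among themselves the genes were alike in pairs. The root mean square difference of centred log2 CPM over the 9 libraries was smallest for Saa1 and Saa2 (0.55) and then for C3 and Lbp (0.70), and it was 2.44 for Saa1 and Saa3 and 2.41 for Chil1 and Chit1. Among 15518 other genes of at least 1 CPM, those with the profile nearest to Saa1 were the mucin gene Muc1 (0.96), Smoc1 (0.96) and Cd14 (1.00). Nearest to Lrg1 were Clic6 (0.51), Gm13889 (0.56) and the sodium channel subunit gene Scnn1b (0.58). Chrdl2, which encodes a BMP antagonist, was nearest to Chil1 (0.52), followed by Gm11963 (0.79) and the mannosidase gene Man1c1 (0.81). Ccdc170 (0.39), Man1a (0.41) and Ccrl2 (0.42) were nearest to C3. Glul, glutamine synthetase (0.61), Tmem213 (0.61) and Glns-ps1 (0.67) were nearest to Wfdc17. Sftpd, the gene of the lung collectin surfactant protein D (0.63), Bst2 (0.64) and Zfp85os (0.65) were nearest to Saa3. Saa3, Sftpd and Zfp85os were all low, with means at or below 2.10 CPM in every group. Bst2 averaged 60.8 CPM in mixed, 39.3 CPM in luminal and 37.6 CPM in basal aggregates. Glns-ps1 is annotated as a glutamine synthetase pseudogene, so reads of it and of Glul may be split between them.

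Genes that surround these 9 in the pathway were taken from 10 lists with 133 genes, of which 86 were tested. For luminal minus basal 44 of the 86 passed as higher and 7 as lower, for mixed minus basal 23 and 2, and for mixed minus luminal 12 and 21. Of all tested genes 12.8% passed as higher and 14.4% as lower in luminal minus basal, 6.39% and 7.33% in mixed minus basal and 15.2% and 14.2% in mixed minus luminal. With the code series as a term 370 of all 18051 tested genes passed as higher and 121 as lower in mixed minus luminal. Among the related genes 3 passed there, all higher in mixed aggregates. Of these Il33 and Fgb had passed before and Hp had not, so that the other mixed minus luminal calls named in the next paragraphs, and that of Acvrl1, ended in that fit. Without luminal 1 or luminal 3 the mixed minus luminal calls among the related genes numbered 20 and 21. Over all tested genes they numbered 2967 without luminal 3. The median log2 differences of the 86 genes were 1.03, 0.61 and -0.30, beside -0.02, -0.07 and -0.05 for all tested genes. The lists were written with earlier results of these data known. All p-values in the paragraphs on these genes are from edgeR's quasi-likelihood test, adjusted over 18051 genes.

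**Figure D4:**
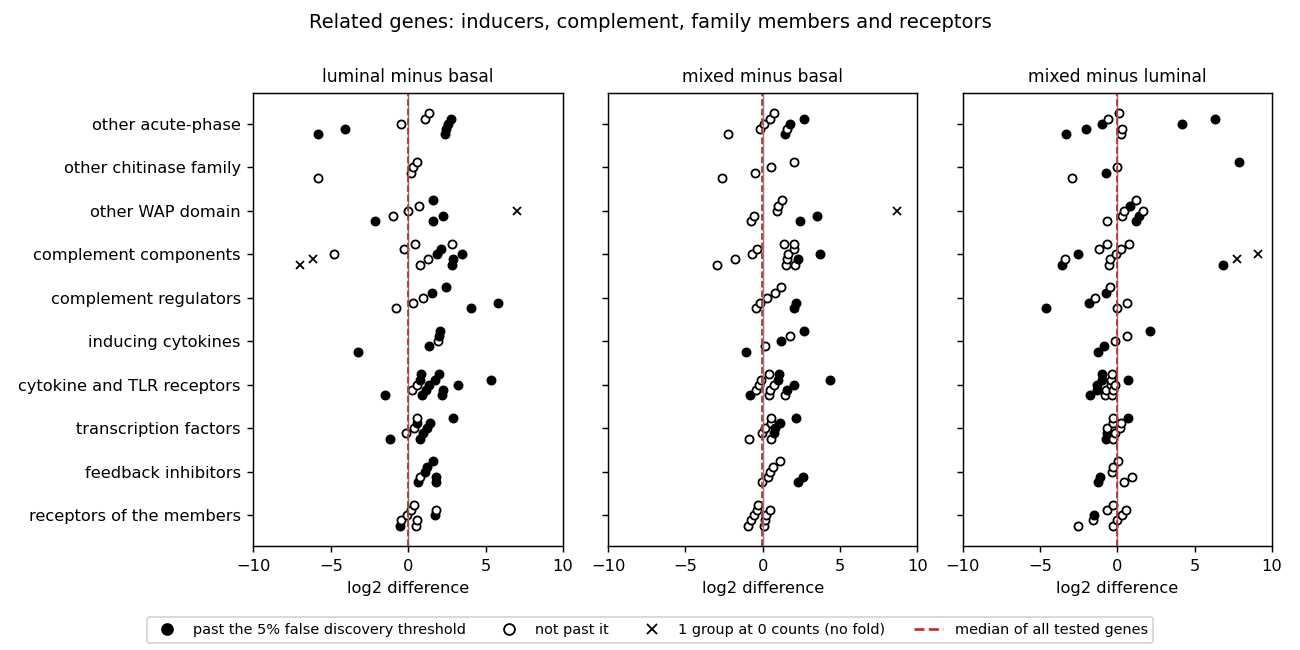
Log2 difference of each tested gene in the 10 related lists, by list, for luminal minus basal, mixed minus basal and mixed minus luminal; filled points passed the 5% false discovery threshold and crosses mark genes with 1 of the groups at 0 counts, for which no fold is read. Receptor genes of the inducing signals lie mostly right of 0 in luminal minus basal (11 of 14 higher). Of 9 receptor genes linked to the secreted proteins, 1 was higher and 1 lower there. Complement component genes spread to both sides in mixed minus luminal (3 higher, the C1q genes counted almost wholly in series A, and 2 lower of 13).

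Inducing cytokines were uneven. Of 5 tested in luminal minus basal 3 were higher and 1 lower. Tnf stood at 19.9, 22.7 and 21.8 CPM in mixed, 12.6, 14.3 and 14.6 CPM in luminal and 1.62, 3.80 and 4.83 CPM in basal libraries, with all mixed libraries above all luminal ones and these above all basal ones. It was higher in luminal than in basal aggregates by 2.02 ± 0.35 (SE, adjusted p = 0.0013) and in mixed than in basal aggregates by 2.65 ± 0.34 (adjusted p = 0.00086), while mixed minus luminal was 0.64 ± 0.34 (adjusted p = 0.18). Lif, a cytokine of the interleukin-6 family, averaged 23.2 ± 5.23 CPM in mixed, 42.8 ± 5.13 CPM in luminal and 10.3 ± 3.86 CPM in basal aggregates (SD, n = 3 each). Its luminal minus basal difference was 2.05 ± 0.29 (adjusted p = 0.00033), and its mixed minus luminal difference of -0.88 ± 0.29 (adjusted p = 0.038) was 0.31 with the series as a term (adjusted p = 0.89) and did not pass without mixed 1, mixed 2 or any luminal library (-0.74 to -0.98). Il33, an alarmin, went the other way, with 64.9 ± 5.53 CPM in mixed, 14.8 ± 6.71 CPM in luminal and 139.7 ± 16.2 CPM in basal aggregates, and fell by 3.24 on the log2 scale in luminal against basal aggregates (adjusted p = 1.6e-05). Il6 and Il1a did not pass the filter on low counts and lay at or below 0.923 CPM in every library. Il1b did not pass it either and stood at 4.49 CPM in mixed 2 and at or below 0.343 CPM elsewhere.

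Receptors of these signals were higher in luminal than in basal aggregates in 11 of 14 genes and lower in 1, in mixed than in basal aggregates higher in 5 and lower in 1, and in mixed than in luminal aggregates higher in 1 and lower in 5. Cd14, the lipopolysaccharide co-receptor that LBP loads, stood at 459, 459 and 489 CPM in mixed, 905, 1051 and 837 CPM in luminal and 19.5, 15.98 and 33.5 CPM in basal libraries. The 3 groups did not overlap, and its luminal minus basal difference was 5.34 ± 0.24 (adjusted p = 3.0e-07). Mixed minus basal was 4.35 ± 0.24 (adjusted p = 6.9e-06), and mixed minus luminal was -0.99 ± 0.24 (adjusted p = 0.012) but -0.22 with the series as a term, where it did not pass. Tlr4, the lipopolysaccharide receptor, was higher in luminal than in basal aggregates by 2.27 ± 0.26 (adjusted p = 6.8e-05) and in mixed than in basal aggregates by 1.54 ± 0.26 (adjusted p = 0.0035), and mixed minus luminal was -0.73 ± 0.25 (adjusted p = 0.051). Tnfrsf1b, a TNF receptor gene, was higher in luminal than in basal aggregates by 3.23 ± 0.59 (adjusted p = 0.0026), and Il1r1, the interleukin-1 receptor gene, was higher in mixed than in basal aggregates by 2.01 ± 0.22 (adjusted p = 0.00029). Lifr, the receptor of LIF, was lower in luminal than in basal aggregates (-1.51 ± 0.18, adjusted p = 7.1e-05). Of 9 tested receptor genes linked to the secreted proteins, 1 was higher (Acvrl1) and 1 lower (Scarb1, -0.54 ± 0.18, adjusted p = 0.046) in luminal minus basal. The call of Scarb1 ended within series B (-0.63) and in 7 of the 9 fits with a library left out.

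Among 10 transcription factors of the acute-phase response 6 passed as higher and 1 as lower in luminal against basal aggregates. Cebpd stood at 123, 122 and 121 CPM in mixed, 179, 246 and 187 CPM in luminal and 27.7, 21.8 and 34.3 CPM in basal libraries. These 3 groups did not overlap. The difference was 2.87 ± 0.19 (SE, adjusted p = 1.8e-06) for luminal minus basal and 2.13 ± 0.19 (adjusted p = 8.5e-05) for mixed minus basal. Mixed minus luminal was -0.74 ± 0.19 (adjusted p = 0.016), and -0.05 with the series as a term, where it did not pass. Cebpb was higher by 0.98 ± 0.23 in luminal than in basal aggregates (adjusted p = 0.0082) and Stat3 by 1.19 ± 0.19 (adjusted p = 6.2e-04). Mixed minus basal was 0.82 ± 0.23 for Cebpb (adjusted p = 0.038) and 0.54 ± 0.19 for Stat3 (adjusted p = 0.077), and Cebpb did not pass within series A (0.33) or in 7 of the 9 fits with a library left out. Another gene name covers 20.7% of the exon bases of Cebpb and 15% of those of Cebpd, and counting did not use strand, so reads of the overlap cannot be assigned. Relb was higher by 1.39 ± 0.22 (adjusted p = 0.00077) and Cebpa was lower (-1.18 ± 0.28, adjusted p = 0.009) in luminal against basal aggregates, and Cebpa did not pass within series B (-0.94). Nfkb1 was higher in mixed than in luminal aggregates (0.66 ± 0.19, adjusted p = 0.021), but not past the threshold without mixed 1 (0.66), mixed 2 (0.53), luminal 1 (0.62) or luminal 3 (0.54).

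Feedback inhibitors were higher in luminal than in basal aggregates in 6 of 7 genes. Nfkbia, the inhibitor of NF-kappaB, stood at 394, 361 and 344 CPM in mixed, 220.4, 352 and 225 CPM in luminal and 63.9, 86.1 and 81.0 CPM in basal libraries. Both kinds with luminal cells lay above all basal libraries, by 2.25 ± 0.21 for mixed (SE, adjusted p = 9.6e-05) and 1.79 ± 0.21 for luminal aggregates (adjusted p = 7.6e-05). Socs3, the inhibitor of STAT3 signalling, averaged 59.6 ± 6.38 CPM in mixed, 144 ± 17.5 CPM in luminal and 61.4 ± 28.8 CPM in basal aggregates (SD, n = 3 each). It was higher in luminal than in basal aggregates by 1.23 ± 0.31 (adjusted p = 0.012) and lower in mixed than in luminal aggregates (-1.27 ± 0.31, adjusted p = 0.012). Mixed minus basal was -0.04 ± 0.31, but basal 2, at 28.5 CPM, was far below basal 1 and 3, and within series A mixed libraries were higher by 1.06 (adjusted p = 0.025). Il1rn, the interleukin-1 receptor antagonist gene, was higher in mixed than in basal aggregates by 2.58 ± 0.36 (adjusted p = 0.0015).

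Of 9 other acute-phase genes 4 passed as higher and 2 as lower in luminal against basal aggregates. Lcn2, lipocalin 2, which withholds iron from bacteria, stood at 1582, 1392 and 1583 CPM in mixed, 2834, 3708 and 2369.6 CPM in luminal and 428, 632 and 610.1 CPM in basal libraries. The groups did not overlap, and luminal minus basal was 2.42 ± 0.21 (adjusted p = 1.1e-05), mixed minus basal 1.45 ± 0.21 (adjusted p = 0.0015) and mixed minus luminal -0.97 ± 0.21 (adjusted p = 0.0074). Hp, haptoglobin, averaged 515 ± 96.8 CPM in mixed, 483 ± 69.4 CPM in luminal and 80.5 ± 61.2 CPM in basal aggregates, with a mixed minus luminal difference of 0.09 ± 0.53. With the series as a term that difference was 2.996 (adjusted p = 0.011), and basal 2 stood at 14.99 CPM, against 90.1 and 136 CPM in basal 1 and 3. Hp was higher than in basal aggregates by 2.59 ± 0.53 in luminal (adjusted p = 0.0049) and 2.68 ± 0.53 in mixed aggregates (adjusted p = 0.011). Cp, ceruloplasmin, had 262 ± 15.6 CPM in mixed, 1084 ± 168 CPM in luminal and 162 ± 66.6 CPM in basal aggregates. The soluble pattern receptor gene Ptx3 was higher than in basal aggregates by 2.37 ± 0.25 in luminal (adjusted p = 4.0e-05) and 1.74 ± 0.25 in mixed aggregates (adjusted p = 0.0014). Lower in luminal than in basal aggregates were Serpina3n (-4.08 ± 1.35, adjusted p = 0.036), at or below 1.72 CPM in every library, and Fgb (-5.85 ± 0.72, adjusted p = 8.4e-05). Fgb, the fibrinogen beta chain, stood at 31.5, 19.1 and 25.8 CPM in mixed, 0, 0.415 and 0.560 CPM in luminal and 27.6, 8.49 and 19.6 CPM in basal libraries.

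Complement genes around C3 differed widely in level, and 10 of 23 components did not pass the filter. In luminal against basal aggregates 5 of 13 tested components passed as higher and 0 as lower, and of 7 tested regulators 4 passed as higher and 0 as lower. C4b averaged 2.57 ± 0.580 CPM in mixed, 31.0 ± 18.7 CPM in luminal and 4.13 ± 2.43 CPM in basal aggregates (SD, n = 3 each), and mixed minus luminal was -3.59 ± 0.56 (adjusted p = 0.0017). C2 was higher in mixed than in basal aggregates by 2.25 ± 0.47 (adjusted p = 0.011), though other gene names cover 46.9% of its exon bases. The C2 call ended within series A (2.27) and without basal 1 (2.25) or basal 3 (2.26). Masp1 stood at 58.9, 54.5 and 76.1 CPM in mixed, 139.7, 14.4 and 7.59 CPM in luminal and 6.54, 4.46 and 3.22 CPM in basal libraries, with luminal 1 far above luminal 2 and 3. Cfb, a protease of the alternative pathway, did not pass the filter and lay at or below 0.871 CPM everywhere, but another gene name covers 79.5% of its exon bases, so reads of the overlap cannot be assigned and the value does not show a low level of Cfb itself. C1qa, C1qb and C1qc, the subunits of C1q and known from macrophages, were the 3 components called higher in mixed than in luminal aggregates. C1qb stood at 2.75, 2.58 and 3.70 CPM in mixed, 0, 0.0593 and 0 CPM in luminal and 0, 2.20 and 0 CPM in basal libraries. C1qa and C1qc too were counted in the 4 series A libraries and held at most 1 count elsewhere, so these calls cannot be told apart from the series, and with it as a term C1qb was at 0.45 and C1qc at 0.51, not past the threshold. Clu, clusterin, averaged 1466 ± 144 CPM in mixed, 5323 ± 1509 CPM in luminal and 323 ± 67.3 CPM in basal aggregates, and its luminal minus basal difference was 4.04 ± 0.23 (adjusted p = 7.8e-07). Cd55, a membrane regulator, was higher in mixed than in basal aggregates by 1.99 ± 0.19 (adjusted p = 0.00011).

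Relatives of the chitinase and WAP-domain genes showed other patterns. None of 4 tested chitinase relatives passed against basal aggregates in either comparison (0 of 4 each). Chia1, an acidic chitinase gene, stood at 31.8, 28.2 and 55.4 CPM in mixed, 0, 0 and 0.498 CPM in luminal and 0, 28.2 and 0 CPM in basal libraries. The 4 libraries with Chia1 are those of series A, so its mixed minus luminal call (adjusted p = 0.046) cannot be told apart from the series. Chil3, a macrophage chitinase-like gene, did not pass the filter and lay at or below 0.923 CPM in every library. Among WAP-domain genes Wfdc18 stood at 14734, 13153 and 16965 CPM in mixed, 4066, 9361 and 5673 CPM in luminal and 1017, 1764 and 1179 CPM in basal libraries. Wfdc18 was highest in the mixed libraries, and its mixed minus luminal difference of 1.23 ± 0.30 (adjusted p = 0.013) no longer passed without luminal 3 (1.15) or with the series as a term (1.19). Slpi, a secreted protease inhibitor, averaged 1673 ± 436 CPM in mixed, 640.2 ± 162 CPM in luminal and 2797 ± 1769 CPM in basal aggregates, and its luminal minus basal difference was -2.13 ± 0.38 (adjusted p = 0.0019). Its mixed minus luminal difference of 1.39 ± 0.38 (adjusted p = 0.021) was -0.018 with the series as a term and did not pass without mixed 3 (1.15), luminal 1 (1.37) or luminal 3 (1.21). Wap itself, a milk protein gene, was at 0 counts in the basal libraries. It stood at 1.49, 0.492 and 6.59 CPM in mixed and 0.486, 1.48 and 0.747 CPM in luminal libraries. With basal set to 3 counts per library, the mixed mean was at least 17.5-fold higher, mostly through mixed 3. The luminal mean was at least 5.54-fold higher. Wap did not pass within series (adjusted p = 0.16 in mixed and 0.13 in luminal against basal).

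Chit1, Wfdc17 and several Saa genes are also made by macrophages and neutrophils, so markers of these cells were summed. The 11 macrophage markers summed to 46.2 to 68.9 CPM in mixed, 23.1 to 54.0 CPM in luminal and 12.5 to 57.9 CPM in basal libraries, where basal 2 was the highest and the other basal libraries were at or below 15.6 CPM. Cd68 made up most of the luminal sum (24.8, 20.9 and 50.2 CPM), against 5.84, 3.81 and 7.35 CPM in mixed and 2.33, 3.91 and 3.05 CPM in basal libraries. Lyz2 stood at 8.30, 33.7 and 13.3 CPM in mixed, 0, 0.0593 and 0.124 CPM in luminal and 0.152, 15.4 and 0.115 CPM in basal libraries, and Cd74 likewise was high in the 4 series A libraries. Tyrobp followed the same series, at 2.12, 2.34 and 1.36 CPM in mixed, 0, 0.0593 and 0 CPM in luminal and 0, 1.49 and 0 CPM in basal libraries. Cd163 stood at 0, 0 and 0.490 CPM in mixed, 0, 0.237 and 0.187 CPM in luminal and 7.71, 7.94 and 11.2 CPM in basal libraries, in all 3 basal libraries alike. Adgre1, Fcgr1, Ptprc and Aif1 lay at or below 0.871 CPM in every library, the only 4 of the 11 below 1 CPM throughout. Of 7 tested macrophage markers 1 was higher and 3 were lower in luminal against basal aggregates, 0 and 1 in mixed against basal and 3 and 1 in mixed against luminal aggregates. The 9 neutrophil markers summed to 16.4 to 33.8 CPM in mixed, 17.3 to 29.3 CPM in luminal and 0.457 to 9.04 CPM in basal libraries, most of it S100a8 except in basal 2, where S100a8 was at 3.69 CPM and S100a9 at 3.42 CPM, while Csf3r lay at or below 0.554 CPM and Ly6g at or below 0.373 CPM everywhere. Wfdc17 was at 37.5 to 43.9 CPM in the luminal libraries, where Lyz2 was at or below 0.124 CPM, and at 2.48 CPM in basal 2, where Lyz2 was at 15.4 CPM. The part of macrophages or of S100a8-expressing cells in the differences of the 9 genes was not tested. Fibroblast markers (7) summed to 48.4 to 71.1 CPM in mixed, 6.77 to 11.01 CPM in luminal and 119.6 to 152.7 CPM in basal libraries. Fbln1 alone made up most of the basal sum (90.5, 131 and 95.9 CPM). It stood at 32.4, 29.2 and 33.1 CPM in mixed libraries and at or below 1.18 CPM in luminal libraries. Of 6 tested fibroblast markers 0 were higher and 1 was lower in mixed against basal aggregates.

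**Figure D5:**
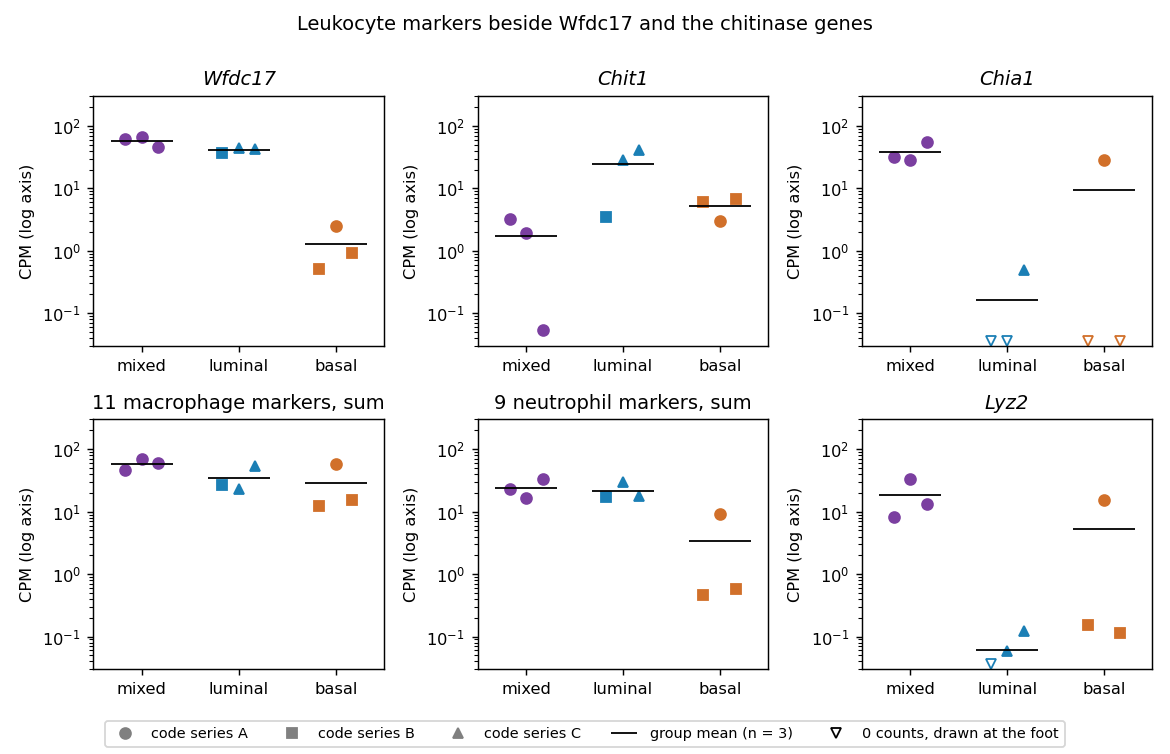
Level in CPM (log axis) of Wfdc17, Chit1, Chia1, the sum of 11 macrophage markers, the sum of 9 neutrophil markers and Lyz2 in each mixed, luminal and basal library; shapes give the code series, lines the group means and open triangles 0 counts. Chia1 and Lyz2 are high in the 4 circles of series A (28.2 to 55.4 CPM for Chia1), whereas Wfdc17 is high in all mixed and luminal libraries.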

How the data were processed

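RNA from mouse mammary aggregates was sequenced as 9 stranded mRNA libraries, 3 mixed, 3 luminal and 3 basal. The table deposited by the authors gives raw counts for each gene name and its summed exon length. Per the file headers, reads were counted as pairs over exons with featureCounts 2.0.1, without using strand and without reads that align to several places, so close copies such as Saa1 and Saa2 may be undercounted. Trimming with Trim Galore, Subread and the build mm39 are named in the submitters' processing notes. The annotation release is not given in the sources used here.

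The analysis used edgeR 4.0.16 in R 4.3.3 (filterByExpr, TMM, robust quasi-likelihood test, two-sided, all 9 libraries with group as a factor, 6 residual degrees of freedom) and Benjamini-Hochberg adjustment over 18051 genes at a threshold of 0.05. The SE is that of the fitted coefficient. CPM are TMM-scaled without a pseudocount, and profiles were compared as log2 CPM at a prior count of 2. Genes and lists were chosen with earlier results of these data known. All 9 genes are described. Of each related list the text draws on up to 2 called genes higher and 2 lower per contrast, with the largest difference and a mean of at least 1 CPM, on 15 fixed genes and the 3 nearest profiles of 6 genes. Serpina3n and C1qa, also named, have a lower mean and so fall outside this rule. A gene that this rule takes in is not reported here. The test was checked on simulated data, but no result of that check is given here. Title numbers were no evidence of pairing between groups (r from -0.17 to 0.20, and 4 of 9 libraries were most like a library of their own number). Alternatives were DESeq2 1.42.0 (size factors and test), limma-voom (limma 3.58.1), library size scaling, other filters, fits of only the groups compared, a replicate block, the code series as a term, basal 2 and mixed 3 left out together, and each library left out in turn.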

Additional observations from a re-analysis of the deposited data

How the results depend on the processing

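The number of the 9 genes past the threshold stayed at 7 or within 1 of it for luminal minus basal and for mixed minus basal under the alternatives tried (7 to 8 and 6 to 7 with each library left out in turn), except that 5 remain in each when the near-identical Saa1 and Saa2 are set aside. For mixed minus luminal it was 4, and it became 7 without a filter on low counts and 2 with the code series as a term, and ranged from 2 (without luminal 3) to 5 (without luminal 1) with a library left out. Of the related genes 33 passed for mixed minus luminal, against 3 with the code series as a term and 20 (without luminal 1) to 37 (without basal 2) with a library left out. Over all 18051 tested genes 2749 passed as higher and 2560 as lower in that contrast, against 370 and 121 with the series as a term. With a library left out the calls over all tested genes numbered 2967 (without luminal 3) to 6774 (without basal 2). For mixed minus basal 25 related genes passed, 39 without basal 2 and mixed 3 together, and 18 to 35 with a library left out. Over all tested genes 1153 passed as higher and 1324 as lower for mixed minus basal. With a library left out those calls numbered 963 (without basal 3) to 5120 (without basal 2). For luminal minus basal 51 related genes passed, and 42 to 52 with a library left out, beside 3678 to 5393 of all tested genes. The cause was not tested. With the title number as a replicate block the 9 genes gave 7, 7 and 4 calls and the related genes 46, 25 and 32.

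With the code series as a term Chit1 in mixed minus luminal changed sign (0.048), as did Slpi (-0.018) and Lif (0.31) in the same contrast and Socs3 in mixed minus basal (1.06). In 60 further values of 23 results the sign differed with neither value past the threshold. Only 4 residual degrees of freedom remain with the series term, and each within-series comparison with basal rests on 1 library on a side, luminal 1 or basal 2. Depth limits Saa2 in basal libraries (0 to 19 counts), Saa3 (4 to 67 counts) and Chit1 in mixed 3 (1 count).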
